A study of Mus musculus with 8 samples.

Results

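The mouse olfactory receptor genes were described here as 1 family across 8 libraries of histone modification peaks from Lewis lung carcinoma isografts. Members were the protein-coding genes of the GENCODE vM1 annotation on chromosomes 1 to 19 whose symbol is Olfr followed by a number. There were 1106 such genes among 21418 autosomal protein-coding genes, and the 7 members on chromosome X were not counted. Of the 1106 members, 25 carry a symbol ending in -ps, the mark of a pseudogene. By chromosome, 286 members lie on chromosome 2, 240 on chromosome 7 and 129 on chromosome 9, and chromosomes 12 and 18 hold none.

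Olfactory receptors are G protein-coupled receptors of the olfactory sensory neurons of the nose, and most of them have an intronless coding region. They form the largest gene family of the mouse genome and lie in large clusters. Each sensory neuron transcribes a single receptor allele while the rest of the family stays in silent chromatin, and a few receptors also have described roles in blood vessels, kidney, liver or sperm. A carcinoma is not expected to transcribe most of the family, so its members served as a measure of how many peaks these libraries hold where little transcription is known.

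LLC is a lung carcinoma line of C57BL/6 mice. LLC-NR cells are sensitive to VEGF-Trap, a soluble decoy receptor that binds vascular endothelial growth factor, and LLC-R is 1 resistant line, selected in mice under continuous VEGF-Trap. Both were grown under the skin of young adult female C57BL/6J mice, and the bulk tumor with its host vessels, leukocytes and fibroblasts was digested with micrococcal nuclease and precipitated with antibodies against H3K4me3, H3K9ac, H3K27me3 and H3K36me3. The first 2 marks are associated with active promoters, H3K27me3 with repression by Polycomb proteins and H3K36me3 with transcribed gene bodies. There was 1 library per line and mark, the number of tumors behind a library is not given in the sources used here, and no difference between the lines could be tested against variation between tumors. Fewer cells of a type and less modification per cell cannot be told apart in bulk tumors.

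Each file lists peaks of 1 fixed width with no height, so the number of peaks in a region was the measure, and it can rise only until the region is full. The libraries hold 5660458 to 9101721 peaks. Peaks covered 33.3% of the autosomes in the H3K4me3 library of LLC-NR and 33.2% for LLC-R, 50.1% and 46.0% for H3K9ac, 42.3% and 52.99% for H3K27me3, and 37.7% and 51% for H3K36me3. Most of the genome is therefore near a peak of some library. Because the 2 libraries of a mark differ in their number of peaks, receptor genes were first compared with reference regions within each library. The references were the 5076 other genes with a CpG-poor promoter, 218116 windows of 1500 bp in gene deserts, and the 371 genes of the other chemosensory receptor families.

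The authors kept only reads that mapped to a single place, so a peak can be found only where the sequence occurs once. The share of unique sequence in a region was taken as the percent of its 32-mers found once in the genome. Receptor genes arose by duplication, and what near copies share is not unique.

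Most annotated receptor promoters were AT-rich and CpG-poor. Of the 1106 promoters, taken from 1000 bp upstream to 500 bp downstream of the TSS, 992 were CpG-poor, 113 intermediate and 1 CpG-rich. The median G+C content was 37.5% against 45.3% in other CpG-poor promoters and 38.3% in desert windows. Unique sequence averaged 86.4% in receptor promoters, 79.8% in other CpG-poor promoters and 81.7% in desert windows. Unique sequence of at least 90% was present in 582 members, or 52.6%. The annotation limits these regions, because 652 members have their TSS within 10 bp of the start codon and 23 have no start codon annotated. For these genes the annotated start may not be where transcription begins. The other 431 have the TSS farther upstream, at a median of 73 bp from the start codon.

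The promoters of Olfr16, Olfr78 and Olfr314 are shown as examples. Their G+C content was 40.8%, 39.7% and 43.1%, above the family median of 37.5%. Olfr314 is of the intermediate CpG class and the others are CpG-poor. Olfr16 (MOR23) is a receptor also described in sperm, Olfr78 is a receptor for short-chain fatty acids also described in blood vessels, and Olfr314 is among the 8 members with the most H3K4me3 peaks. The 250 bases before each TSS are given 5′ to 3′ on the strand of the gene, in build NCBIM37, the assembly of mm9. The windows are chr1:174886649-174886898 on the plus strand, chr7:109907986-109908235 on the minus strand and chr11:58599391-58599640 on the plus strand. Capitals mark TATAAA on either strand.
Olfr16: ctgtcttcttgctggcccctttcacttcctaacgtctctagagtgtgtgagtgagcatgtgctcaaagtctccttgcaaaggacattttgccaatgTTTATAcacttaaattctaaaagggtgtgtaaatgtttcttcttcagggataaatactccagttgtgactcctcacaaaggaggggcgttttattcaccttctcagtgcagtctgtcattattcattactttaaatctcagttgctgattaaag
Olfr78: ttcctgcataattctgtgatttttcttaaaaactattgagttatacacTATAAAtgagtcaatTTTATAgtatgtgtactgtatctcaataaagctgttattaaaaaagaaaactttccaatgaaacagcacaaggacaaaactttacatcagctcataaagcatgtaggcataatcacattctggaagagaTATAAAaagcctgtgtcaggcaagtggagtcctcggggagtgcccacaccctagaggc
Olfr314: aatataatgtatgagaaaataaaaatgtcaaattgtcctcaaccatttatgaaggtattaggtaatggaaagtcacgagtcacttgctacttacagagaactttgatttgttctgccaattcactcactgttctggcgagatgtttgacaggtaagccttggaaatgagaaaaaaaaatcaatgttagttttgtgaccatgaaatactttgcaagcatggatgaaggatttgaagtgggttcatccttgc
In Olfr78 a TATAAA began 58 bases before the TSS and others 187 and 202 bases before it, in Olfr16 one lay 154 bases before the TSS, and the window of Olfr314 held none. Motifs were searched on both strands of the 250 bases before every TSS, and they were chosen after the files had been seen. TATAAA was present in 422 of 1106 receptor windows (38.2%), in 20.5% of other CpG-poor windows and in 12.5% of all windows. TAATTA, a core bound by homeodomain proteins such as Lhx2, was present in 201 receptor windows (18.2%), 6.68% of other CpG-poor windows and 4.50% of all windows. Both motifs hold only A and T, the receptor windows are rich in these bases, and the part of base composition in these shares was not tested.

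In both lines, receptor promoters carried H3K4me3 peaks at a level close to that of gene deserts and slightly below that of other CpG-poor promoters. The mean number of H3K4me3 peaks was 3.15 ± 1.42 for LLC-NR and 3.09 ± 1.40 for LLC-R (SD over 1106 promoters). Other CpG-poor promoters averaged 3.36 and 3.25, desert windows 3.08 and 3.14, and CpG-rich promoters 6.07 and 5.62. On the log2 scale, the ratio of receptor to other CpG-poor promoters was -0.094 (95% interval -0.147 to -0.041) for LLC-NR and -0.071 (-0.125 to -0.018) for LLC-R. These intervals are exact binomial intervals of 2 summed counts and cover counting error only. The ratio to deserts was 0.032 (-0.017 to 0.080) for LLC-NR and -0.023 (-0.072 to 0.025) for LLC-R, and both intervals included equality. With only the 431 members whose TSS lies upstream of the start codon, the ratio to other CpG-poor promoters was -0.010 (-0.089 to 0.067) and -0.015 (-0.096 to 0.064), so over all regions the difference did not hold there. The 250 of them with at least 90% unique sequence averaged 3.69 and 3.57 peaks. Other CpG-poor promoters of such sequence averaged 4.19 and 4.05. The distance to CpG-rich promoters was much larger than any difference between receptor promoters, other CpG-poor promoters and deserts.

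The comparison was repeated where at least 90% of the sequence was unique, in members and references alike. Receptor promoters then averaged 3.63 and 3.58 H3K4me3 peaks in LLC-NR and LLC-R, deserts 3.695 and 3.69, and other CpG-poor promoters 4.19 and 4.05. The log2 ratio to deserts was -0.024 (-0.086 to 0.038) and -0.041 (-0.104 to 0.021). The ratio to other CpG-poor promoters was -0.21 (-0.27 to -0.14) and -0.18 (-0.24 to -0.11). Weighting the reference to the G+C of receptor promoters turned the sign over all regions, to 0.084 and 0.160, but left -0.139 and -0.057 within unique sequence. The part of unique sequence in this turn was not tested.

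**Figure D1:**
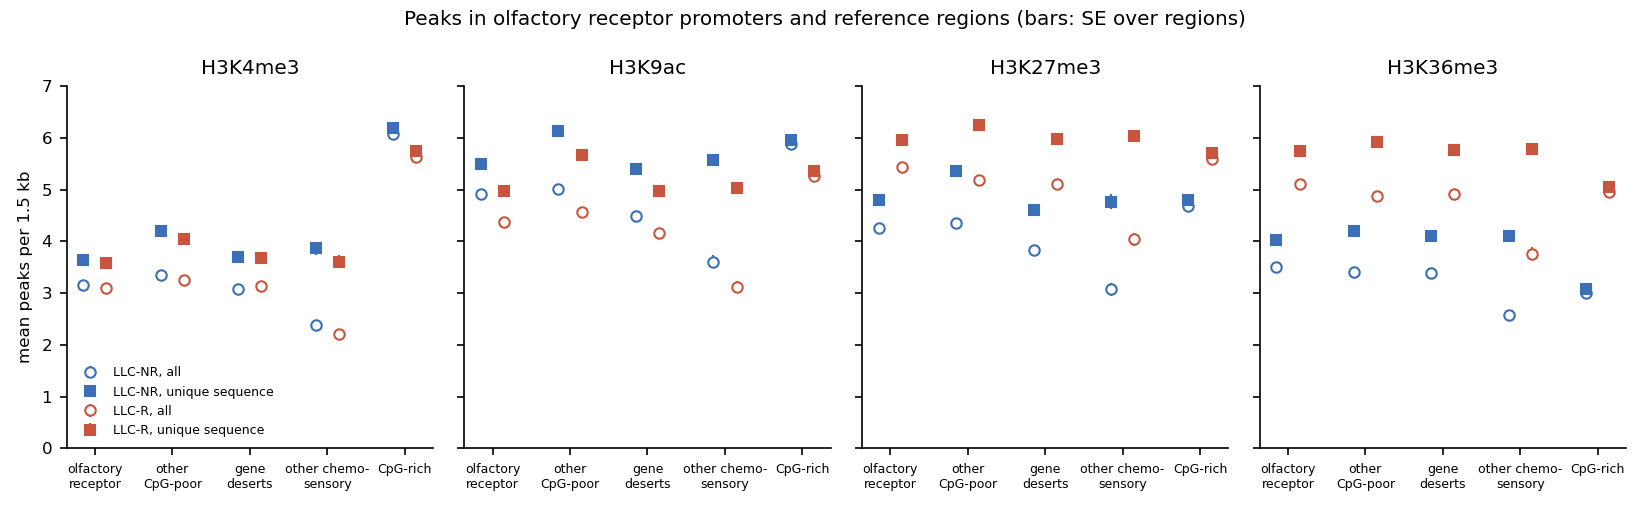
Mean number of peaks per 1.5 kb (vertical axis) of each mark in olfactory receptor promoters, other CpG-poor promoters, gene desert windows, promoters of other chemosensory receptors and CpG-rich promoters. Blue stands for LLC-NR and red for LLC-R, open circles for all regions and filled squares for regions of unique sequence, with SE bars over regions. Receptor promoters (3.63 and 3.58 H3K4me3 peaks in unique sequence) sit at the level of deserts (3.695 and 3.69), and CpG-rich promoters stand above both for H3K4me3.

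H3K9ac, a mark of active promoters and enhancers, was also close to the desert level where sequence was unique. Receptor promoters averaged 4.90 ± 1.41 peaks for LLC-NR and 4.36 ± 1.48 for LLC-R. The log2 ratio to other CpG-poor promoters was -0.028 (-0.071 to 0.014) and -0.068 (-0.113 to -0.023), and within unique sequence -0.16 (-0.21 to -0.10) and -0.19 (-0.25 to -0.13). Over all regions, the LLC-R value was -0.046 (-0.114 to 0.021) with only the members whose TSS lies upstream of the start codon and -0.049 (-0.098 to 0.0001) without the largest cluster. Over all regions receptor promoters were above deserts by 0.13 (0.089 to 0.17) and 0.068 (0.027 to 0.109). Within unique sequence the ratio to deserts was 0.026 (-0.025 to 0.076) for LLC-NR and -0.005 (-0.058 to 0.048) for LLC-R, and both intervals included equality. The means there were 5.49 ± 1.08 and 4.96 ± 1.17 peaks in receptors and 5.39 ± 1.16 and 4.98 ± 1.19 in desert windows (SD). These SDs are smaller than independent counts of that size would give, so the intervals can be too wide. A small difference is thus not excluded.

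H3K27me3, the mark of Polycomb repression, was not higher at receptor promoters of unique sequence than at other CpG-poor promoters of unique sequence. They averaged 4.26 ± 1.62 peaks for LLC-NR and 5.43 ± 1.35 for LLC-R. The log2 ratio to other CpG-poor promoters was -0.030 (-0.075 to 0.016) for LLC-NR and 0.066 (0.025 to 0.106) for LLC-R, and within unique sequence -0.16 (-0.22 to -0.10) and -0.068 (-0.120 to -0.016). Against deserts it was 0.16 (0.12 to 0.20) and 0.087 (0.050 to 0.123) over all regions. Within unique sequence it was 0.054 (0.0003 to 0.108) for LLC-NR and -0.004 (-0.052 to 0.045) for LLC-R. The positive value in LLC-R against other CpG-poor promoters thus turned negative once both sets were limited to unique sequence.

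H3K36me3 was counted over gene bodies, since transcribed genes carry it along their length. Receptor genes are short, with a median length of 960.5 bp against 9093 bp in other CpG-poor genes, and 908 of them have 1 exon. Their bodies held 2.05 peaks per kb for LLC-NR and 3.09 for LLC-R, against 2.45 and 3.33 in the bodies of other CpG-poor genes and 2.26 and 3.28 in deserts. The log2 ratio to the other genes was -0.26 (-0.31 to -0.22) and -0.108 (-0.145 to -0.071). Among bodies of unique sequence, 467 of them receptors, it was -0.103 (-0.166 to -0.040) and -0.013 (-0.066 to 0.039), and the ratio to deserts was -0.024 (-0.087 to 0.038) and -0.002 (-0.055 to 0.050). Counted from 500 to 3000 bp downstream of the TSS, a window that begins inside most receptor genes and runs past their end, the ratio to other genes turned to 0.062 and 0.075.

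How many peaks a receptor promoter held followed its share of unique sequence. With under 70% unique sequence the 135 members averaged 1.60 H3K4me3 peaks for LLC-NR and 1.64 for LLC-R, and with at least 97% the 346 members averaged 3.75 and 3.68. H3K9ac rose between the same bins from 3.04 to 5.67 peaks in LLC-NR, and H3K27me3 in LLC-R from 3.46 to 6.05. Across the 1106 members, Spearman's rho with the unique share lay between 0.42 for H3K27me3 in LLC-NR and 0.57 for H3K36me3 in LLC-R. The corresponding rho with G+C lay between -0.10 and 0.28, the highest being H3K27me3 in LLC-NR. These coefficients describe promoters that often share a cluster, a library and their sequence. Above 70% unique sequence, the receptor means stayed below those of other CpG-poor promoters in every bin of the 3 promoter marks.

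**Figure D2:**
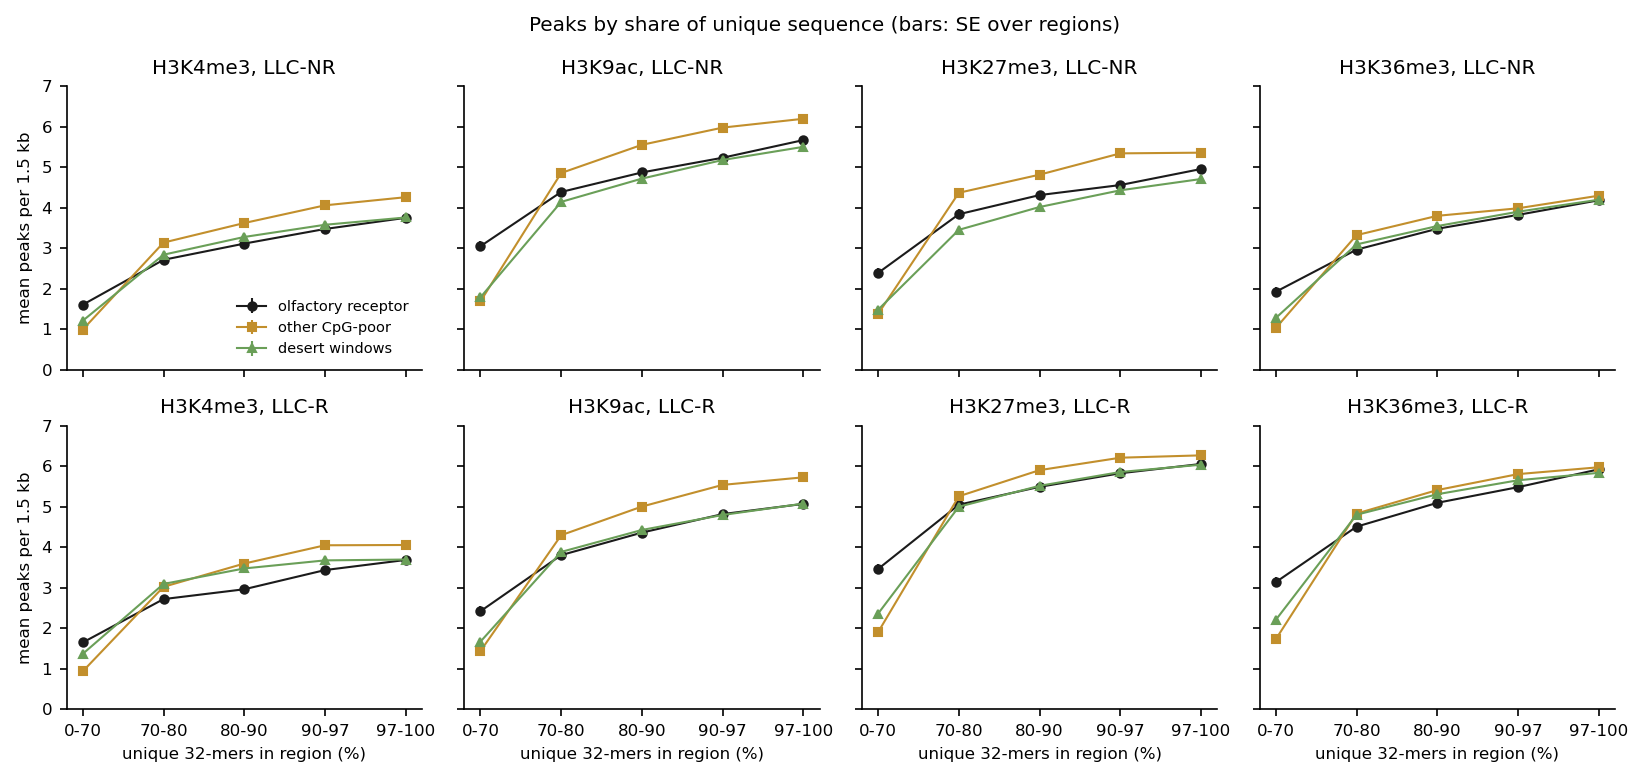
Mean number of peaks per 1.5 kb (vertical axis) against the percent of unique 32-mers in the region (horizontal axis) for each library, in receptor promoters (black circles), other CpG-poor promoters (ochre squares) and desert windows (green triangles), with SE bars over regions. All 3 sets climb with unique sequence, and from 70% upward the receptor promoters lie below the other CpG-poor promoters. They lie below deserts for H3K4me3 in LLC-R at 80 to 90% (2.96 against 3.47) and above them for H3K27me3 in LLC-NR at 70 to 80% (3.83 against 3.45).

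Around the TSS, receptor genes showed no H3K4me3 peak of the size seen at CpG-rich genes, and a dip from 200 bp downstream. The 50 bp just after the TSS stood above the 50 bp before it in the 675 members without an upstream TSS, for H3K4me3 at 1.15 against 0.72 in LLC-NR and 1.08 against 0.70 in LLC-R. H3K9ac, H3K27me3 and H3K36me3 rose at the same place, with H3K9ac at 1.19 against 0.68 and 1.17 against 0.71. G+C also rose there, from 36.6% to 42.9%. In the 431 members with the TSS upstream of the start codon, H3K4me3 density from 200 to 0 bp before the TSS was 0.97 of the autosomal mean for LLC-NR and 0.92 for LLC-R. From 0 to 200 bp after it the values were 0.97 and 1.04, where CpG-rich genes reached 2.04 and 1.95. From 200 to 1000 bp after the TSS the receptors fell to 0.84 and 0.83, and the other 675 members to 0.75 and 0.81. H3K36me3 was 0.81 and 0.91 there in the first group. Unique sequence moved with this dip, since it was 91.5% from 1000 to 200 bp before the TSS and 81.2% from 200 to 1000 bp after it in the first group. In the other members it went from 90.7% to 76.8%. Between the same positions G+C rose from 35.9% to 42.3% in the first group and from 34.7% to 43.3% in the others. The part of unique sequence or G+C in the dip was not tested. Other CpG-poor genes, here the 4743 without the other chemosensory receptors, had 80.5% and 81.0% unique sequence and 44.2% and 46.05% G+C. They had 0.996 and 1.02 of the autosomal mean for H3K4me3 in LLC-NR.

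Nearly every receptor promoter held some peaks. A peak of all 8 libraries was present in 1029 members (93.0%), against 83.4% of other CpG-poor promoters. Mean unique sequence in these 2 sets was 86.4% and 79.8%. Only Olfr1506, Olfr1316 and Olfr247 had no promoter peak in any library, and they were named after their values were seen. Unique sequence made up 0%, 7.47% and 0.667% of these 3 promoters. Their 0 therefore stood where almost no read could be placed. Among the 582 promoters of unique sequence, 2 (0.34%) had no H3K4me3 peak in LLC-NR and 3 (0.52%) had none in LLC-R. In unique sequence these shares were 0.29% and 0.096% of other CpG-poor promoters and 0.11% and 0.059% of all promoters.

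The receptors with described ligands or described sites outside the nose lay within the range of the family. Of 12 such genes, 11 were found in the annotation and Olfr160 was not. Olfr78 held 3 H3K4me3 peaks for LLC-NR and 3 for LLC-R, 4 and 3 of H3K9ac, 6 and 4 of H3K27me3, and 1 and 6 of H3K36me3 over its promoter. Olfr558, another fatty acid receptor of vascular smooth muscle, held 2 and 1 of H3K4me3, 4 and 5 of H3K9ac, 7 and 5 of H3K27me3, and 5 and 7 of H3K36me3. H3K27me3 was thus at 6 or 7 peaks in LLC-NR at both genes, above the family mean of 4.26. In LLC-R it was at 4 and 5 peaks, below the family mean of 5.43. The Olfr78 promoter had 87.2% unique sequence.

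Olfr544, a receptor for azelaic acid in liver and fat, held 1 and 3 H3K4me3 peaks and 3 and 7 H3K27me3 peaks. Olfr1393, described in the kidney, held 5 and 4 of H3K4me3, with 79.4% unique sequence. Olfr2, the octanal receptor I7 that is also described in macrophages, held 2 and 1 of H3K4me3. These host-tissue receptors showed no common direction between the lines.

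Olfr16 held 3 H3K4me3 peaks in each line. Olfr73, the eugenol receptor, also held 3 in each, and Olfr151, the acetophenone receptor M71, likewise 3 in each. Olfr17, known as P2, held 6 for LLC-NR and 4 for LLC-R, the most of the 11 when both lines are summed. Olfr1507 and Olfr1508 held 2 and 1 in LLC-NR and, in the resistant line, 3 and 2. The 11 genes thus spanned 1 to 6 peaks for LLC-NR and 1 to 4 for LLC-R, against family means of 3.15 and 3.09.

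The 8 members with the most H3K4me3 peaks over both lines were Olfr332, Olfr1052, Olfr314, Olfr873, Olfr94, Olfr464, Olfr1412 and Olfr1535. Olfr332 and Olfr1052 each held 6 for LLC-NR and 7 for LLC-R. Olfr314 held 7 and 6, and Olfr1412 held 7 and 5. CpG-rich promoters averaged 6.07 and 5.62, so Olfr1412 was above that mean in LLC-NR and below it in LLC-R. At Olfr1412 the other marks were as dense, with 8 H3K27me3 peaks in each line and 7 and 8 of H3K36me3. The remaining 4 members held 6 in both lines. Between them, the 8 promoters lay on chromosomes 1, 2, 9, 11, 13 and 17, and all but Olfr464 (87.9%) had at least 90% unique sequence. At least 7 H3K4me3 peaks were present in 5 of 1106 members in LLC-NR and in 6 in LLC-R. No conclusion is drawn from the 0 members that reached 7 in both, since so few reached it in either line. The share of all promoters at that number is not given here.

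The promoters of Olfr1408, Olfr648 and Olfr659 rose the most between the lines, from 0 H3K4me3 peaks in LLC-NR to 4 in LLC-R, followed by Olfr545 and Olfr773 from 0 to 3. Olfr527 fell the most, from 5 to 0, then Olfr981 and Olfr324 from 3 to 0, and Olfr1049 and Olfr1176 from 2 to 0. The other marks need not move with H3K4me3 at these genes. At Olfr648, H3K9ac was 6 and 5 and H3K27me3 was 5 in each line. At Olfr527, H3K9ac was 5 in each line and H3K27me3 was 5 in each line. With 1 library per line these are the ends of 1106 values and carry no error, and Olfr773 had only 23.7% unique sequence.

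Differences of single promoters were counted where the log2 ratio of LLC-R to LLC-NR, after a pseudocount of 0.5 peaks and division by the peaks of the library, was at least 1 or at most -1. For H3K4me3, 84 members (7.59%) were higher and 115 (10.4%) lower, against 2.66% and 3.18% of all 21418 promoters. Receptor promoters hold fewer H3K4me3 peaks than the 4.97 and 4.66 of all promoters, and at low counts a ratio of a given size takes fewer peaks. The part of peak number in these shares was not tested. Other CpG-poor promoters had 5.95% higher and 6.30% lower. In unique sequence the shares were 5.67% and 6.70% of receptors, 4.46% and 4.525% of other CpG-poor promoters, and 1.65% and 1.89% of all promoters.

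For H3K9ac, 13 members (1.18%) were higher and 45 (4.07%) lower, against backgrounds of 1.09% and 1.69%. For H3K27me3, 50 members (4.52%) were higher and 6 (0.542%) lower, against 3.78% and 0.817%. For H3K36me3 over the promoter, 70 members (6.33%) were higher and 17 (1.54%) lower, against 9.69% and 0.966%. For H3K27me3 the receptor shares were thus near the background in both directions, and for H3K36me3 fewer receptors than promoters as a whole were called higher. Other CpG-poor promoters were also below that background, at 7.72%, and in unique sequence the shares were 4.30% of receptors and 4.27% of other CpG-poor promoters.

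The counts of a receptor promoter in 1 line went weakly with those in the other. Over members of unique sequence, Spearman's rho between LLC-NR and LLC-R was 0.16 for H3K4me3, 0.21 for H3K9ac, 0.22 for H3K27me3 and 0.12 for H3K36me3 (n = 582). Other CpG-poor promoters gave 0.32, 0.23, 0.32 and 0.19 (n = 3116), and CpG-rich promoters 0.37, 0.36, 0.45 and 0.30 (n = 10614). Over all 1106 members rho was 0.35, 0.47, 0.48 and 0.37. The unique share varies more over all members and is the same for both libraries. Its part in the larger values over all members was not tested.

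Promoter states were set by the average over all promoters of a library. A promoter was active with H3K4me3 or H3K9ac at or above that average and H3K27me3 below it, repressive in the opposite case, bivalent with both at or above it, and in the state none otherwise. In LLC-NR, 189 members (17.1%) were active, 308 (27.8%) bivalent, 208 (18.8%) repressive and 401 (36.3%) in none, against 30.3%, 49.1%, 7.97% and 12.7% of all promoters. In LLC-R, 101 (9.13%) were active, 260 (23.5%) bivalent, 319 (28.8%) repressive and 426 (38.5%) in none, against 25.6%, 46.7%, 12.4% and 15.3%. Receptor promoters were thus more often repressive or in none than promoters as a whole in both lines.

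Other CpG-poor promoters were active at 16.2% and 10.1%, close to the receptors. They were bivalent more often, at 44.8% and 40.6%, and repressive less often, at 11.6% and 19.4%. Among promoters of unique sequence, none was the state of 18.4% and 19.6% of receptors but of 5.33% and 7.03% of other CpG-poor promoters. The exact 95% interval of the receptor share was 15.3 to 21.8% in LLC-NR and that of the other promoters 4.57 to 6.18%. Repressive promoters of unique sequence made up 17.9% of receptors and 11.8% of the others in LLC-NR. In LLC-R these shares were 33.3% and 22.2%. In the same set H3K27me3 itself was lower in receptors than in other CpG-poor promoters, as were H3K4me3 and H3K9ac.

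Less than 50% of members kept their state, a smaller share than in the references. The same state was found in both lines in 512 of 1106 members (46.3%, exact 95% interval 43.3 to 49.3%), in 58.9% (57.5 to 60.2%) of other CpG-poor promoters and in 59% of all promoters. In unique sequence it was found in 36.1% (32.2 to 40.1%) of members and 52.1% (50.3 to 53.8%) of other CpG-poor promoters. Of the 189 active in LLC-NR, 27 stayed active, 80 became repressive, 36 bivalent and 46 none. The change from active to repressive was seen in 42.3% of active members, 17.3% of active CpG-poor promoters of other genes and 6.16% of all active promoters. Of the 208 repressive in LLC-NR, 85 (40.9%, 34.1 to 47.9%) stayed repressive and 11 became active. Of promoters repressive in LLC-NR, 33.45% (29.6 to 37.4%) of other CpG-poor ones and 33.8% (31.6 to 36.1%) of all stayed so. Of the 401 in none, 267 (66.6%) stayed there, against 82.0% of other CpG-poor promoters in none and 76.2% of all. In unique sequence, 32.7% of members in none and 22.9% of other CpG-poor promoters in none stayed there. The thresholds are averages of 4.59 H3K27me3 peaks for LLC-NR and 5.49 for LLC-R, so a single peak more or less can change a state.

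Relative to other CpG-poor genes, the difference between LLC-R and LLC-NR in receptors was small for every mark. The difference of the 2 log2 ratios, LLC-R minus LLC-NR, was 0.023 (-0.052 to 0.098) for H3K4me3 and -0.040 (-0.101 to 0.022) for H3K9ac, and both intervals included 0. It was 0.096 (0.035 to 0.156) for H3K27me3 and 0.15 (0.094 to 0.21) for H3K36me3 over gene bodies. The paper lists more uniquely mapped reads for LLC-R than for LLC-NR in both of these marks, and fewer in H3K4me3 and H3K9ac. The part of sequencing depth in the differences was not tested. Without the largest cluster the H3K27me3 difference was 0.044 (-0.022 to 0.110), and with only the members whose TSS lies upstream of the start codon 0.046 (-0.044 to 0.136), so it did not hold in either. Within unique sequence the 2 differences were 0.091 (0.013 to 0.169) and 0.090 (0.008 to 0.171). With unique sequence and the G+C of receptors together, H3K27me3 went down to 0.023 and H3K36me3 was 0.108.

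Desert windows, at a median G+C of 38.3%, were close to receptor promoters (37.5%) but below receptor gene bodies (42.99%), over which H3K36me3 was counted. Relative to deserts, the differences were -0.055 (-0.123 to 0.013) for H3K4me3, -0.060 (-0.116 to -0.003) for H3K9ac, -0.070 (-0.125 to -0.015) for H3K27me3 and 0.056 (-0.002 to 0.114) for H3K36me3. In unique sequence every one of these 4 intervals included 0. The direction for H3K27me3 thus depended on whether genes or deserts were the reference. Without scaling, H3K27me3 peaks were more numerous in the LLC-R library in 747 members (67.5%) and fewer in 126 (11.4%). In other CpG-poor promoters these shares were 54.7% and 13.4%. The direction goes with the larger number of H3K27me3 peaks in the LLC-R library.

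Most members lie in clusters. With neighbours at most 500 kb apart and at least 5 members, 32 clusters held 1067 members over 29.3 Mb. Across whole clusters, with all the sequence between the genes, the median density relative to all autosomes was 0.82 in H3K4me3 for LLC-NR and 0.83 for LLC-R. It was 0.83 and 0.80 for H3K9ac, 0.90 and 0.88 for H3K27me3, and 0.79 and 0.88 for H3K36me3. The cluster lay below its own flanks of 500 kb in 21 to 27 of 32 clusters, depending on the library. Unique sequence was also lower in clusters, with a median of 74.4% against 82.7% in the flanks, and G+C was 39.5% against 43.1%.

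Windows of 1500 bp with unique sequence left a smaller difference. The 8345 such windows in clusters averaged 3.75 H3K4me3 peaks for LLC-NR and 3.57 for LLC-R, against 3.97 and 3.89 in 12991 windows of the flanks and 3.695 and 3.69 in deserts. The log2 ratio of clusters to flanks was -0.081 (-0.101 to -0.061) and -0.123 (-0.144 to -0.102) for H3K4me3, and -0.105 (-0.122 to -0.089) and -0.131 (-0.149 to -0.114) for H3K9ac. It was -0.037 (-0.055 to -0.019) and -0.023 (-0.040 to -0.007) for H3K27me3, and -0.092 (-0.112 to -0.073) and -0.043 (-0.059 to -0.026) for H3K36me3. By cluster, 20 and 24 of 32 were below their flanks for H3K4me3, 24 and 26 for H3K9ac, 12 and 14 for H3K27me3, and 21 and 23 for H3K36me3. Clusters and flanks differed in G+C here too, at 37.8% and 44.2%, while the desert windows had 37.7%. H3K27me3 was thus the only mark for which fewer than 16 clusters lay below their flanks.

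**Figure D3:**
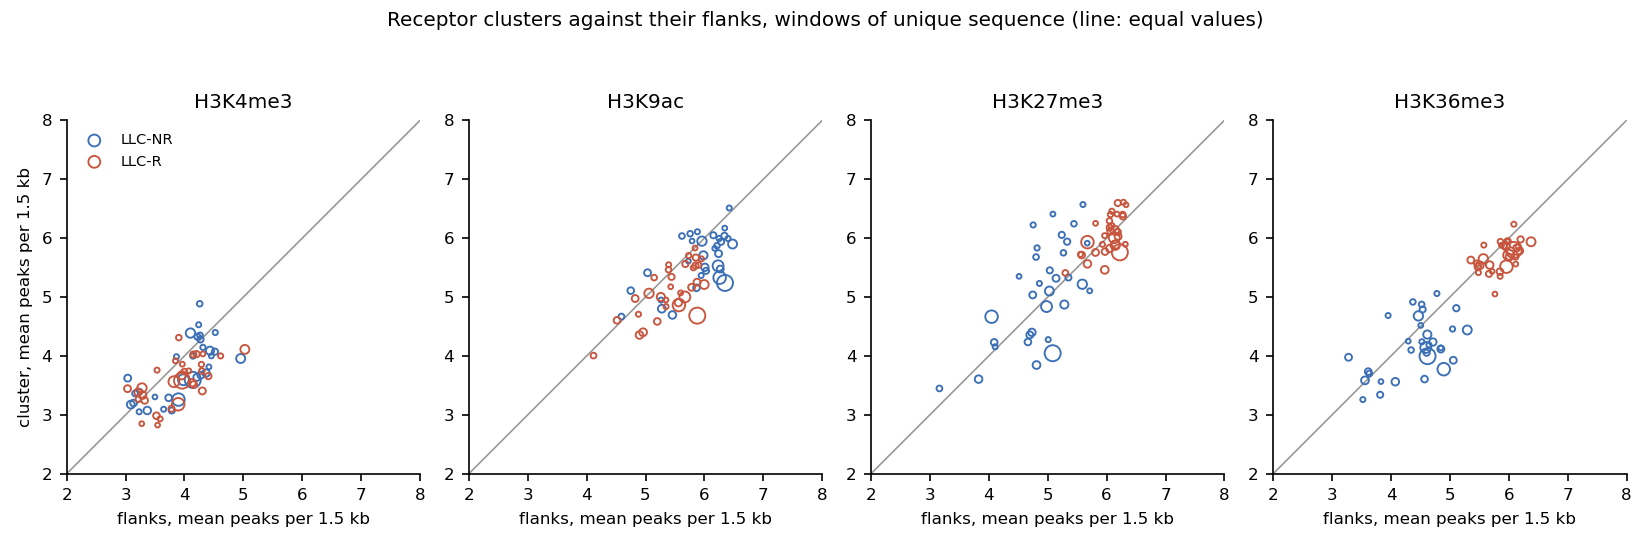
Mean number of peaks per 1.5 kb in windows of unique sequence, in each of 32 receptor clusters (vertical axis) against the flanks of that cluster (horizontal axis), for LLC-NR (blue) and LLC-R (red). Circle size grows with the number of members and the line marks equal values. For H3K9ac 24 and 26 of 32 clusters lie below the line, for H3K27me3 only 12 and 14.

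The largest clusters differed from one another. The cluster of 221 members on chromosome 2 (chr2:85171054-90122730), from Olfr987 to Olfr1272, had 37.0% G+C and 73.5% unique sequence. Its unique windows held 4.05 H3K27me3 peaks in LLC-NR against 5.08 in its flanks, and 5.76 against 6.22 in LLC-R. G+C was 34.9% in these windows and 45.0% in those of the flanks. Removing its members moved the log2 ratio of receptor promoters to other CpG-poor promoters for H3K27me3 in LLC-NR from -0.030 to 0.028, and that to deserts from 0.16 to 0.21.

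The cluster on chromosome 7 (chr7:109625287-112517869) holds 129 members, the class I receptors, around the beta-globin genes Hbb-b1, Hbb-b2, Hbb-y, Hbb-bh1 and Hbb-bh2. Its unique windows held 3.26 H3K4me3 peaks for LLC-NR and 3.18 for LLC-R, below the flanks at 3.90 and 3.89. For H3K27me3 it stood above its flanks, at 4.67 and 5.93 against 4.05 and 5.67. Its 72 promoters of unique sequence averaged 3.14 and 3.53 H3K4me3 peaks, against 3.704 and 3.59 in the other 510 members.

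The cluster of 65 members on chromosome 19 (chr19:11902567-13994534) stood out between the lines. Its unique windows held 4.39 H3K4me3 peaks for LLC-NR and 3.46 for LLC-R, and its flanks moved with it, from 4.10 to 3.28. H3K9ac went from 5.95 to 5.06 in the cluster and from 5.96 to 5.06 in the flanks. The cluster of 94 members on chromosome 9 (chr9:37518857-39995679) held 3.60 and 3.56 H3K4me3 peaks and 4.84 and 6.01 of H3K27me3. The cluster of 58 members on chromosome 10 (chr10:128426905-129648205) held 3.96 and 4.11 of H3K4me3, where the flanks held 4.95 and 5.02.

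Over the 32 clusters, the difference between the lines went with that in the flanks. Pearson's r between the log2 ratio of LLC-R to LLC-NR in a cluster and in its flanks was 0.57 for H3K4me3, 0.68 for H3K9ac, 0.69 for H3K27me3 and 0.36 for H3K36me3 (Spearman's rho 0.40, 0.56, 0.68 and 0.24). For H3K27me3 the ratio also went with G+C, with r of -0.72 and rho of -0.72. It ranged from -0.31 to 0.38, with the higher ratios mostly in AT-rich clusters. The density itself went with G+C for H3K27me3 in LLC-NR (r = 0.72) and less in LLC-R (r = 0.58), and with the unique share in every library, with r from 0.55 to 0.85. Points share libraries and base composition, and the part of G+C in the difference was not tested.

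**Figure D4:**
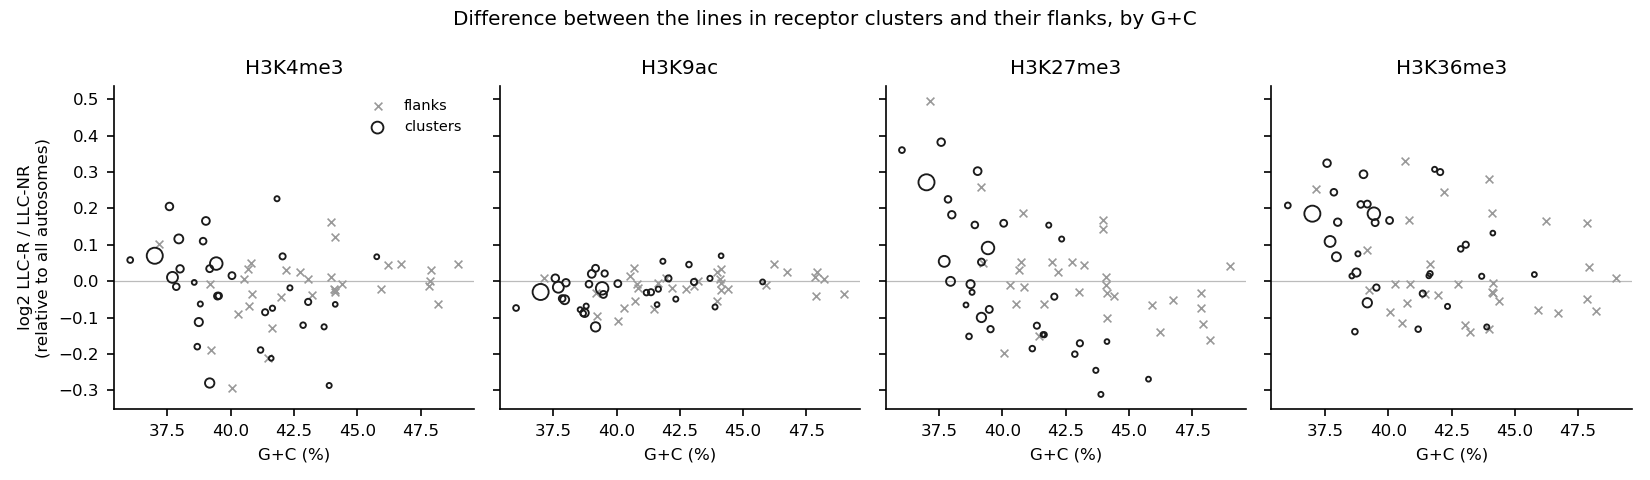
Log2 ratio of peak density, each relative to all autosomes, in LLC-R over LLC-NR (vertical axis) against G+C in percent (horizontal axis) for 32 receptor clusters (circles, size by number of members) and their flanks (crosses). H3K27me3 slopes down from AT-rich to G+C-rich clusters, between 0.38 and -0.31, and H3K9ac stays between -0.13 and 0.07.

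The exons of receptor genes were compared with the rest of the cluster around them, and no interval lay wholly below equality. Exons made up 1.11 Mb of the clusters, with 76.9% unique sequence and 43.97% G+C against 73.7% and 38.7% in the rest. The log2 ratio of exons to the rest was -0.033 (-0.098 to 0.032) for LLC-NR and 0.029 (-0.035 to 0.093) for LLC-R for H3K4me3. For H3K36me3 it was -0.051 (-0.113 to 0.011) and 0.078 (0.029 to 0.127), and for H3K27me3 0.089 (0.034 to 0.143) and 0.095 (0.047 to 0.143). H3K9ac gave 0.043 (-0.009 to 0.094) and 0.158 (0.105 to 0.210). For H3K4me3 and for H3K36me3 in LLC-NR the intervals thus included equality, and exons were lower in 18 of 32 clusters for both marks in that line.

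Among other genes inside the clusters, the order of promoter classes was that of the whole genome. The 34 CpG-rich promoters of other genes there averaged 5.88 ± 1.43 and 5 ± 1.33 H3K4me3 peaks (SD), against 6.07 and 5.62 in all CpG-rich promoters outside the family. The 60 CpG-poor ones averaged 3.68 and 3.25, against 3.36 and 3.25. Receptor promoters in the same clusters averaged 3.14 and 3.09, and the 39 members outside clusters 3.23 and 3.28. H3K27me3 in those 39 was 5 and 5.62, against 4.24 and 5.42 in clusters, with G+C at 42.3% and 38.0%.

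The other chemosensory receptors held fewer peaks than olfactory receptors over all promoters and similar numbers in unique sequence. The 371 vomeronasal, taste and trace amine-associated receptor genes averaged 2.38 and 2.20 H3K4me3 peaks, with 63.3% unique sequence. Over the 115 of them with unique sequence the means were 3.86 and 3.61, against 3.63 and 3.58 in olfactory receptors. Vomeronasal Vmn1r genes held 2.08 and 1.91 at 57.2% unique sequence, and taste Tas2r genes 3.86 and 4.29 at 97.6%. Vmn2r and Taar genes lay between them, in the order of their unique share. The 371 genes partly overlap the CpG-poor reference.

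The genes of the olfactory signalling pathway differed from the receptors in their promoters. All 21 genes of this list were found, 15 of them CpG-rich, 2 intermediate and 4 CpG-poor. Their median H3K4me3 count was 5 in each line. In LLC-R, 1 of the 21 was called lower and 0 higher, against 3.18% and 2.66% of all promoters. Adcy3, the adenylyl cyclase of olfactory cilia, held 6 and 7, and Gnal, the alpha subunit of the olfactory G protein, 5 and 5. Omp, the olfactory marker protein, held 3 and 5. Rtp1, a chaperone that brings receptors to the cell surface, held 2 and 4, and Cnga4, a subunit of the transduction channel, 5 and 4.

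Gng13, the gamma subunit of the G protein, was the gene called lower, from 5 to 2. Lhx2 and Ebf1, transcription factors of receptor choice, held 6 and 5, and 5 and 4. Ldb1, the cofactor of Lhx2, held 8 and 6. The channel subunit Cngb1 held 0 in all libraries, and its promoter had 0% unique sequence. For H3K9ac 0 of the 21 were called higher or lower, against 1.09% and 1.69% of all promoters. For H3K27me3 it was also 0 in each direction, against 3.78% and 0.817%. For H3K36me3 2 of the 21 were called higher, against 9.69% of all promoters. These counts are too small to set the list apart from that background.

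Markers of cell types overlapped in their numbers of peaks. In LLC-NR, H3K4me3 ranged from 4 to 6 peaks over 4 carcinoma markers, 2 to 7 over 4 leukocyte markers, 3 to 6 over 4 endothelial markers and 5 to 6 over 4 fibroblast markers. Over 8 markers of olfactory sensory neurons, which the tumor should lack, it ranged from 0 to 6 with a median of 4. In LLC-R the ranges were 4 to 6, 1 to 6, 3 to 5, 4 to 6 and 0 to 7. The medians in LLC-NR were 6 for carcinoma and 5.5 for each of the 3 host cell types, above that of the neuron markers. In LLC-R they were 6 for carcinoma, 4.5 for leukocyte, 4.5 for endothelial, 5 for fibroblast and 4 for neuron markers. The lists also differ in CpG class, since 4 of the 8 neuron markers are CpG-poor, against 0 or 1 of 4 in the other lists. The only marker at 0 was Cngb1, whose promoter has 0% unique sequence and which is part of the neuron median.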

How the data were processed

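Per the labels and the study's methods, chromatin of LLC-NR and LLC-R isografts was cross-linked, digested with micrococcal nuclease, precipitated with an antibody against 1 of 4 modifications and sequenced. The authors aligned reads to mm9 with Bowtie 0.12.7, allowing 2 mismatches, kept reads with a single place in the genome, and ran GeneTrack on every library to call peaks. Its settings are not given in the sources used here. The deposited files list the positions of peaks of 1 fixed width without a height, and no input library was analysed.

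A peak was assigned to the base at its midpoint. Promoters ran from 1000 bp upstream to 500 bp downstream of the TSS of GENCODE vM1, and gene bodies over the whole gene. Promoters were called CpG-rich where an interval of 500 bp had G+C of at least 55% and an observed to expected CpG ratio of at least 0.6, CpG-poor where no interval reached 0.4, and intermediate otherwise. Desert windows of 1500 bp lay at least 50 kb inside intervals of at least 500 kb without a gene. Unique sequence was the share of 32-mers found once in the genome, on either strand, and regions with at least 90% were called unique.

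Summed peaks of members and references were compared within each library as log2 ratios with exact 95% binomial intervals, and shares have exact (Clopper-Pearson) intervals. These cover counting error only, and peaks without molecular identifiers are not independent molecules. Peaks of a library do not overlap, so summed counts can vary less than the intervals of the log2 ratios assume. A ratio interval that includes equality therefore does not show equality. With 1 library per line and mark, no p-value between lines was computed. The alternatives were another reference, weighting by G+C in bins of 2 percentage points, unique sequence only, members with an upstream TSS, other regions, any overlapping base, and gene-free intervals of 1000 kb. The weighting within unique sequence, the removal of the largest cluster, the reference without other chemosensory genes, the limit on body length and the unique windows of clusters were chosen after seeing the data.

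Members and lists were chosen with earlier results of these data known. The genes named were those of a list of 12 receptors with described ligands or sites, the 8 with the most H3K4me3 peaks over both lines, and the 5 with the largest ratio in each direction. The motifs were chosen after the files had been seen. The counting was tested on simulated data. Scripts ran in Python 3.11.15 with pandas 2.3.3, numba 0.67.0, SciPy 1.17.1, NumPy 2.4.6 and Matplotlib 3.10.9.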

Additional observations from a re-analysis of the deposited data

Results flagged for a closer look

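For H3K27me3, the log2 ratio of receptor promoters to other CpG-poor promoters was -0.030 for LLC-NR and 0.066 for LLC-R, and so had opposite signs in the lines. For H3K4me3, the ratio of receptor promoters to gene deserts was 0.032 for LLC-NR and -0.023 for LLC-R. With 1 library per line, neither difference was tested against variation between tumors. Of these 4 values, only that of H3K27me3 in LLC-R had an interval of counting error that left out 0 (0.025 to 0.106), and it was -0.068 in unique sequence.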

How the results depend on the processing

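Of 188 alternative values for 32 results, 127 stayed within the counting interval of the reported value (for cluster medians, within 1 SD over clusters), 48 moved out of it, and 13 reversed a value whose interval left out 0. The sign also turned in 4 of the 127 and 7 of the 48, where the reported interval included 0. The cause was not tested. Values are log2 ratios, given for LLC-NR and then LLC-R where there are 2.

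Against other CpG-poor genes, weighting by G+C gave 0.084 and 0.160 for H3K4me3, 0.156 and 0.161 for H3K9ac, 0.194 and 0.215 for H3K27me3, and 0.021 for the difference between lines in H3K27me3. Unique sequence alone gave -0.207 and -0.177, -0.158 and -0.191, -0.159 and -0.068, and for H3K36me3 bodies -0.103 and -0.013, with 0.090 for the difference between lines. Both together gave -0.082 for H3K9ac in LLC-NR, -0.024 for H3K27me3 in LLC-R and 0.023 for its difference, and -0.115 and -0.0064 for H3K36me3. A reference of all genes that are not CpG-rich gave -0.235 and -0.203, -0.093 and -0.127, -0.082 and 0.016, and -0.350 and -0.183 for the 4 marks in order. Members with an upstream TSS gave -0.010 and -0.015 for H3K4me3 and 0.066 and 0.112 for H3K27me3. Promoters of 500 bp to each side gave -0.183 and -0.143 for H3K4me3 and -0.073 for H3K9ac in LLC-NR. For H3K36me3, 500 to 3000 bp downstream gave 0.062 and 0.075, with 0.012 for the difference, and any overlapping base gave -0.137 and 0.0076. Without the largest cluster, H3K27me3 in LLC-NR was 0.028.

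Against deserts, unique sequence gave -0.024 for H3K4me3 in LLC-NR, 0.026 and -0.0048 for H3K9ac, 0.054 and -0.0036 for H3K27me3, and -0.024 and -0.0023 for H3K36me3. With G+C weighting added these were -0.026, 0.026 and -0.0033, 0.059 and -0.0026, and 0.030 and -0.00042, with -0.030 for the difference between lines in H3K36me3. Weighting alone gave -0.023 and -0.014 for H3K36me3. For H3K27me3 in LLC-NR, gene-free intervals of 1000 kb gave 0.238, and leaving out the largest cluster 0.214.

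No paired analysis was possible because each line and mark has 1 library. For the same reason no replicate was left out. A stricter peak threshold was not run, since the peaks were used without a height. The use of the most upstream TSS of each gene has no separate value for H3K36me3 in bodies.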
